A study of Homo sapiens with 2 samples.

Results

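The cysteine, elongator methionine, initiator methionine and selenocysteine tRNA genes were described in CLIP-seq libraries of hTrmt13 (TRMT13), the human relative of a yeast enzyme that adds a 2'-O-methyl group to the acceptor stem of some tRNAs. Members were taken by name from the listed features of biotype tRNA (tRNA-Cys, tRNA-Met, tRNA-iMet and tRNA-SeC), and lookalike features named tRX were left out. This gave 55 genes out of 596 tRNA features (47 of them lookalikes) and 741078 features in all. They were 32 cysteine, 10 elongator methionine, 10 initiator methionine and 3 selenocysteine genes. The libraries came from MDA-MB-231, an established human breast carcinoma line, with no genotype or treatment given in the labels. There was 1 group with 2 replicates and 0 control libraries were analysed here, so a value describes recovered RNA and not enrichment, and no condition was tested. In CLIP-seq, a protein is isolated with the RNA crosslinked to it, and here the RNA was treated with AlkB-type enzymes that remove base modifications. The series aimed this assay at the tRNAs that the enzyme binds.

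These families do different jobs in translation. Initiator methionine tRNA carries the first amino acid of nearly every protein and is brought to the small ribosomal subunit by eIF2, whereas elongator methionine tRNA reads the same codon inside the message. Cysteine tRNA, with the anticodon GCA, is encoded by many gene copies, a large group of which lies in 1 cluster on chromosome 7. Selenocysteine tRNA reads UGA at sites marked by an RNA element in the message, is first charged with serine, and is the longest cytosolic tRNA. The name of a tRNA gene ends in a pair of numbers. Genes that share the first number encode the same mature sequence (an isodecoder), and the second number counts the copies, so reads of the mature RNA cannot be assigned to 1 copy.

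Each library had 1 count table per read mate. The R1 totals were 27907799 (replicate 1) and 20590398 (replicate 2), and the R2 totals 11246823 and 8793089. Of the R1 counts, 60.02% and 56.4% were in tRNA features. Values are R1 counts unless stated, and CPM are counts per 1000000 listed counts, not scaled for length (48 of the 52 genes other than selenocysteine have 72 or 73 bases). Whether separate cultures were used is not in the labels, so the SD may hold technical spread only, and all intervals cover counting error of PCR reads. Marker mRNAs did not identify the cell line. Of 6 genes expected in this line, VIM stood at 24.4 CPM and the other 5 (CD44, AXL, CAV1, ANXA1, LGALS1) lay below CDH1, which stood at 1.96 CPM without scaling for length and was the highest of 6 genes expected to be low.

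The 55 genes together took 5.70% of the tRNA counts in replicate 1 (955312 counts, 95% Clopper-Pearson interval 5.692 to 5.714%) and 5.94% in replicate 2 (689266 counts, 5.926 to 5.953%), while making up 9.23% of the tRNA features. Cysteine tRNA was the most abundant of the 4 families. It took 2.92% of tRNA counts in replicate 1 (488824 counts, interval 2.910 to 2.926%) and 3.12% in replicate 2 (361851 counts, 3.108 to 3.128%), or 3.02% ± 0.141 (SD, n = 2). Elongator methionine tRNA took 1.97% in replicate 1 (330720 counts, 1.968 to 1.981%) and 1.96% in replicate 2 (227871 counts, 1.956 to 1.972%), or 1.97% ± 0.00770 (SD, n = 2). Initiator methionine tRNA took 0.737% (123370 counts, 0.7324 to 0.7406%) and 0.786% (91240 counts, 0.7811 to 0.7913%), or 0.761% ± 0.0351 (SD, n = 2). Selenocysteine tRNA took 0.0740% (12398 counts, 0.07272 to 0.07533%) and 0.0716% (8304 counts, 0.07002 to 0.07311%), or 0.0728% ± 0.00174 (SD, n = 2).

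The order of the 4 families was the same in both replicates and both mates, and their replicate values did not overlap in either mate. With 10 genes each, the elongator family held 2.68 times the share of the initiator family in replicate 1 and 2.50 times in replicate 2. Set against the share of features, elongator methionine tRNA was at 1.17 times its share, cysteine at 0.562, initiator methionine at 0.454 and selenocysteine at 0.145. In R2 elongator methionine tRNA stood below its feature share, at 0.711 times, and selenocysteine stood at 0.322. The R1 ratios lean on the 3 highest tRNA loci (tRNA-Arg-CCT-2-1, tRNA-Lys-TTT-14-1 and tRNA-Arg-CCT-4-1), which lie outside these families. Without them in the denominator, cysteine took 4.67% of R1 counts against 5.37% of features, and elongator methionine 3.05% against 1.68%. Initiator methionine then took 1.18% against 1.68%, and selenocysteine 0.113% against 0.503%. Among 51 anticodon families averaging 10 or more counts, Cys-GCA ranked 6, Met-CAT 12, initiator Met-CAT 21 and SeC-TCA 45. In R2 the shares were 1.86% ± 0.0303 for cysteine, 1.19% ± 0.0355 for elongator methionine, 0.554% ± 0.0140 for initiator methionine and 0.162% ± 0.000593 for selenocysteine (SD, n = 2 each). Selenocysteine tRNA was thus higher in R2 than in R1, and the other 3 families were lower, each by more than the SD between replicates.

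**Figure D1:**
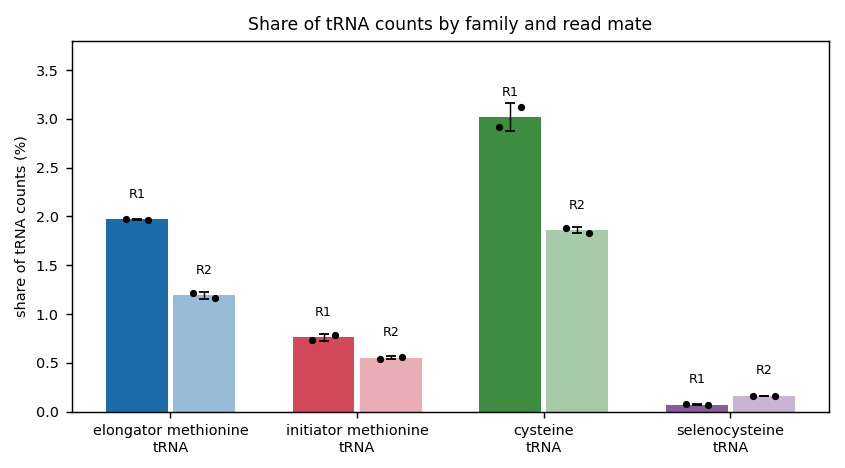
Share of all tRNA counts (%, vertical axis) taken by each of the 4 families in the R1 (full colour) and R2 (pale) tables. Bars are means of 2 replicates, error bars are SD and black points are the replicates. Cysteine leads at 3.02% in R1, and selenocysteine alone is higher in R2 (0.162%) than in R1 (0.0728%).

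All 55 genes had an R1 count in both replicates, and 54 had a mean count of at least 10, against 473 of all 596 tRNA features (79.4%). The median gene stood at 245 CPM, against 47.8 CPM over all 596 tRNA features, and 20 of 55 genes had a mean count of at least 10000, against 144 of 596 (24.2%). The 596 features include the 55 genes and also 47 lookalikes, a kind left out of the 55. These comparisons were not repeated without the lookalikes.

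The counts of initiator methionine tRNA were placed almost wholly at 2 of its 10 genes, which are 2 of 8 copies of 1 mature sequence. tRNA-iMet-CAT-1-1 (hg19 chromosome 1, 153643726 to 153643797, plus strand) had 57320 (replicate 1) and 42379 (replicate 2) counts, a mean of 2056 ± 3.03 CPM (SD, n = 2). tRNA-iMet-CAT-1-2 (chromosome 6, 26286754 to 26286825, plus strand) had 57388 and 41981 counts, or 2048 ± 12.4 CPM (SD, n = 2). The 2 genes held 46.5% each of the family's counts in replicate 1, and 46.4% and 46.01% in replicate 2. The other 6 copies of this isodecoder, all on the minus strand, had 7 to 25 counts each in replicate 1 and 21 to 42 in replicate 2. Summed over the 8 copies, the isodecoder stood at 4110 ± 5.17 CPM (SD, n = 2). tRNA-iMet-CAT-2-1 (chromosome 6, 27745664 to 27745735, plus strand), a separate isodecoder, had 8546 and 6670 counts, or 315.1 ± 12.5 CPM (SD, n = 2). tRNA-iMet-CAT-3-1 had 17 and 16 counts. None of these genes overlaps another listed gene.

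The elongator methionine genes were more even, with 7 of the 10 holding over 90% of the family. tRNA-Met-CAT-1-1 (chromosome 8, 124169470 to 124169542, minus strand) had 56494 and 39689 counts, or 1976 ± 68.4 CPM (SD, n = 2). tRNA-Met-CAT-6-1 (chromosome 16, 87417628 to 87417700, minus strand) had 53891 and 37483 counts, or 1876 ± 78.2 CPM (SD, n = 2). These were followed by tRNA-Met-CAT-4-2 (1605 ± 88.4 CPM), tRNA-Met-CAT-4-1 (1593 ± 88.9 CPM), tRNA-Met-CAT-4-3 (1583 ± 97.9 CPM) and tRNA-Met-CAT-2-1 (1578 ± 96.1 CPM) (SD, n = 2 each). The last 4 differ from each other by less than their SD. As an isodecoder, the 3 copies of tRNA-Met-CAT-4 summed to 4781 ± 275 CPM (SD, n = 2) and led all isodecoders of the 55 genes in R1. In R2 it stood at 1953 CPM, below tRNA-iMet-CAT-1 at 3226 and tRNA-Cys-GCA-9 at 2198 CPM. The lower genes were tRNA-Met-CAT-5-1 at 646 ± 28.9 CPM, tRNA-Met-CAT-3-1 at 321 ± 3.14, tRNA-Met-CAT-3-2 at 262 ± 4.24 and tRNA-Met-CAT-7-1 at 19.4 ± 0.183 CPM (SD, n = 2 each). By position, the 7 genes on chromosome 6 held 52.7% and 52.5% of the family, the 2 on chromosome 16 held 30.2% and 30.1%, and the single gene on chromosome 8 held 17.1% and 17.4%. Where reads match genes on several chromosomes, such shares depend on how they were placed.

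tRNA-Cys-GCA-2-2 was the highest of all 55 genes in R1. It lies on chromosome 17, 37023898 to 37023969, on the plus strand, where replicate 1 had 101853 and replicate 2 had 83760 counts, a mean of 3859 ± 296 CPM (SD, n = 2). In R2 it stood at 1736 ± 101.4 CPM, within the SD of tRNA-Met-CAT-6-1 at 1732 ± 240.1 CPM (SD, n = 2 each). The next in R1 were tRNA-Cys-GCA-8-1 (chromosome 14, 73429679 to 73429750, plus strand) with 58841 and 44877 counts, or 2144 ± 50.3 CPM, and tRNA-Cys-GCA-5-1 (chromosome 15, 80036997 to 80037069, plus strand) with 58486 and 44461 counts, or 2128 ± 44.99 CPM (SD, n = 2 each). tRNA-Cys-GCA-4-1 (chromosome 17, 37025545 to 37025616, minus strand) had 57431 and 39173 counts, or 1980 ± 109.9 CPM (SD, n = 2). tRNA-Cys-GCA-3-1 (chromosome 7, 149286164 to 149286235, minus strand) had 45182 and 32480 counts, or 1598 ± 29.4 CPM (SD, n = 2). Of the 32 genes, 11 held 90% of the family, and the median gene stood at only 105 CPM.

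The chromosome 7 cluster holds 18 of the 32 cysteine genes, between 149007281 and 149404831, and was assigned 37.1% of the family's counts in replicate 1 and 35.5% in replicate 2. The 6 genes on chromosome 17 held 35.7% and 36.98%. The single genes on chromosomes 14 and 15 held 12.04% and 11.96% in replicate 1 and 12.4% and 12.3% in replicate 2. Copies of tRNA-Cys-GCA-9 lie on chromosomes 7 and 3, and those of tRNA-Cys-GCA-2 on chromosomes 17 and 4. Shares by chromosome thus depend on how reads were placed, which was not tested. Within the cluster the levels ran from 1.99 CPM for tRNA-Cys-GCA-23-1 to 1598 CPM for tRNA-Cys-GCA-3-1. RefSeq (GRCh38.p14) lists 51 of the 55 genes, 49 as tRNA and 2 as pseudogenes, and both pseudogenes are cysteine. tRNA-Cys-ACA-1-1, the only gene with that anticodon, had 5 and 1 counts and was the lowest of all 55. tRNA-Cys-GCA-25-1 had 69 and 32 counts in R1.

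Selenocysteine tRNA came almost wholly from 1 gene. tRNA-SeC-TCA-1-1 (chromosome 19, 45981859 to 45981945, minus strand) had 11456 and 7593 counts, or 390 ± 29.5 CPM (SD, n = 2), which was 92.4% and 91.4% of the family. tRNA-SeC-TCA-2-1 (chromosome 22, 44546537 to 44546620, plus strand) had 805 and 574 counts, or 28.4 ± 0.684 CPM, and tRNA-SeC-TCA-3-1 (chromosome 17, minus strand) had 137 in each, or 5.78 ± 1.23 CPM (SD, n = 2 each).

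**Figure D2:**
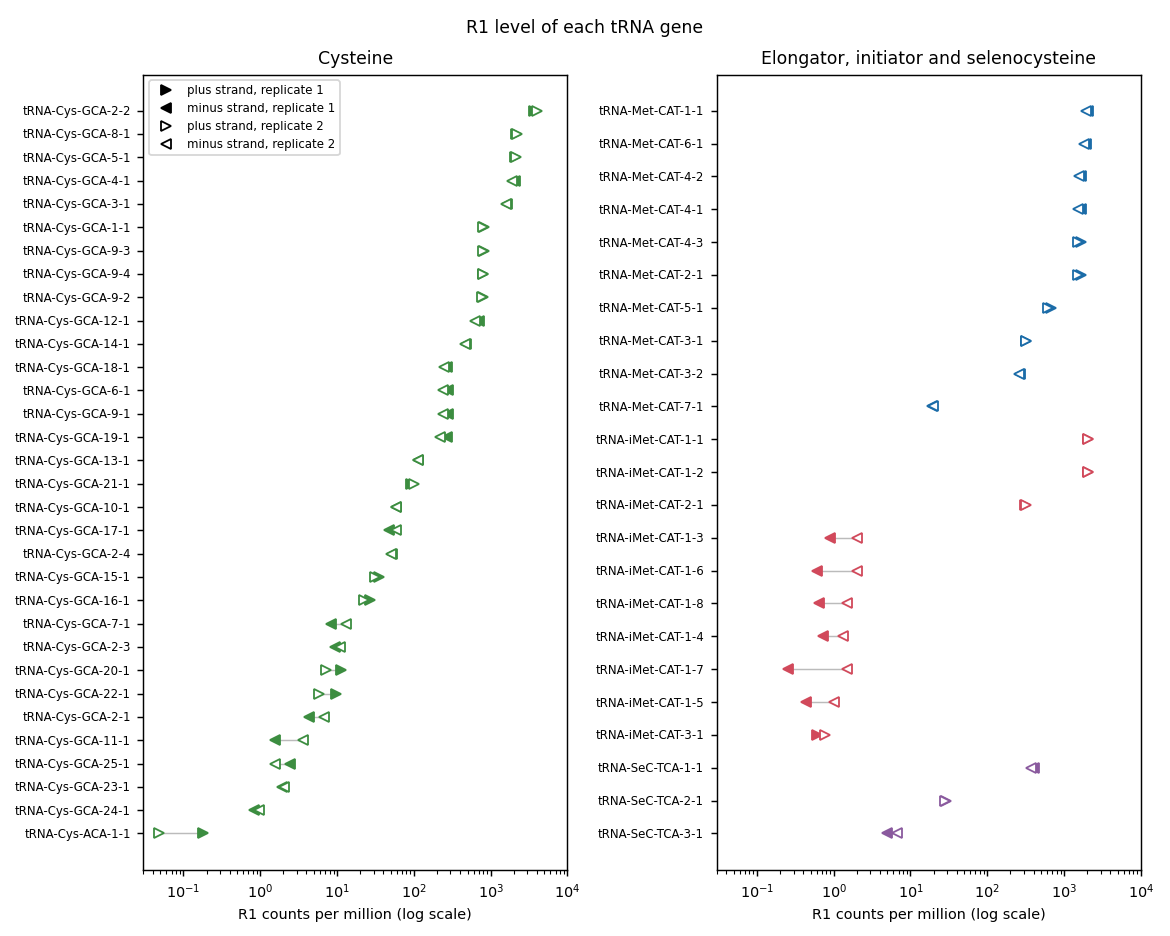
R1 level of each of the 55 genes in CPM (horizontal, log scale), with cysteine genes at the left and the other families at the right. Triangles point right for plus-strand and left for minus-strand genes, and are filled for replicate 1 and open for replicate 2. The 2 plus-strand copies of tRNA-iMet-CAT-1 sit near 2050 CPM while its 6 minus-strand copies lie between 0.251 and 2.04 CPM in single replicates.

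Copies of 1 mature sequence did not share counts evenly, and in 2 isodecoders the split followed the strand of the gene. Of the isodecoders, 5 had copies on both strands. For tRNA-iMet-CAT-1 the median plus-strand copy had 57354 counts in replicate 1 and the median minus-strand copy 17.5, a ratio of 3277, and in replicate 2 the ratio was 1361. For tRNA-Cys-GCA-2 the plus-strand copy had 101853 counts, while the 3 minus-strand copies had 119, 260 and 1429. The ratio of plus copy to median minus copy was 392 in replicate 1 and 371 in replicate 2.

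The other 3 isodecoders differed less by strand in R1. For tRNA-Cys-GCA-9 the 3 plus-strand copies had 22399 to 22556 counts and the minus-strand copy 7665 in replicate 1, with ratios of 2.94 and 3.34 in the 2 replicates. In R2 the split of this isodecoder was wider, with ratios of 40.5 and 63.4. For tRNA-Met-CAT-3 the ratios were 1.22 and 1.23. The copies of tRNA-Met-CAT-4 had nearly the same R1 count on both strands, with ratios of 0.994 and 0.985, but in R2 the plus-strand copy had 13308 counts against 5731 and 5590, and the ratios were 2.35 and 2.59.

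Such splits were not particular to these families. Over all tRNA genes, 44 isodecoders with a mean count of at least 10 had copies on both strands. The plus-strand copies were higher in both replicates in 24 of them (54.5%) and in 4 of the 5 described here, and the minus-strand copies in 20 and 1. The plus-strand copies were at least 10 times higher in 11 of 44 (25.0%) and in 2 of 5, and the minus-strand copies in 5 of 44 and 0 of 5. The reason for these splits was not tested, and the sources used here do not give how reads with several matches were placed.

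**Figure D3:**
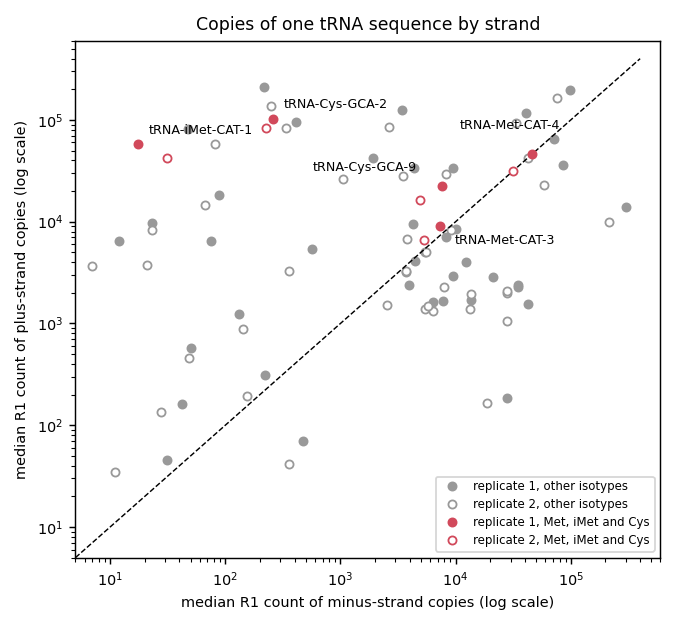
Median R1 count of the plus-strand copies (vertical) against that of the minus-strand copies (horizontal, both log scales) for 44 isodecoders with copies on both strands. Red points are the 5 isodecoders of methionine and cysteine tRNA, grey points are other isotypes, filled points are replicate 1 and open points are replicate 2. The dashed line marks equal counts, and tRNA-iMet-CAT-1 lies farthest above it among the red points.

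Some genes on the same strand had nearly equal counts. Among 33 genes with a mean count of at least 1000, 528 pairs were compared, and 13 pairs differed by at most 3 counting standard errors in all 4 tables, a bound set with the values in view. Several of these pairs share a gene, so they are not independent. All 13 pairs, close in R1 and R2 alike, were on the same strand, against 258 of the 528 compared (48.9%). Of the 13, 5 shared an isodecoder, against 12 of 528. The same held outside these families. Among 34716 pairs of other tRNA genes, 110 were as close (0.317%, against 2.46% here), all 110 were on the same strand and 73 shared an isodecoder. Of all 34716 pairs, 226 shared an isodecoder (0.651%, against 2.27% here). The 2 sets of pairs thus differ in makeup, and their rates of close pairs are not compared. tRNA-Cys-GCA-1-1 and 3 copies of tRNA-Cys-GCA-9 formed 1 such group, with 22730, 22499, 22556 and 22399 counts in replicate 1 and 16403, 16135, 16501 and 16391 in replicate 2. tRNA-Cys-GCA-8-1 and tRNA-Cys-GCA-5-1, on chromosomes 14 and 15, formed another, as did tRNA-Met-CAT-4-3 and tRNA-Met-CAT-2-1, on chromosomes 6 and 16. In R1 alone, near-equal counts also crossed strands. The plus-strand tRNA-Met-CAT-4-3 had 46109 and 31168 R1 counts, and the minus-strand tRNA-Met-CAT-4-1 had 46198 and 31496. Their R2 counts in replicate 1 were 13308 and 5731. tRNA-Cys-GCA-9-1 paired not with the other copies of its isodecoder but with tRNA-Cys-GCA-6-1 and tRNA-Cys-GCA-18-1, at 7665, 7718 and 7616 counts in replicate 1. How reads were divided among such genes was not tested.

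The mates were unevenly balanced between families and genes. Over all tRNA features, R2 counts were 42.7% of R1 counts in replicate 1 and 41.5% in replicate 2. Elongator methionine tRNA stood at 26.3% and 24.7%, initiator methionine at 31.5% and 29.8%, and cysteine at 27.5% and 24.4%. Selenocysteine tRNA stood at 93.3% and 94.3%, and tRNA-SeC-TCA-1-1 itself had 10306 R2 counts for 11456 in R1 and 7223 for 7593. The selenocysteine features are 87, 84 and 74 bases long, whereas 48 of the other 52 genes have 72 or 73. Other tRNA genes of at least 80 bases had a median of 61.9% and 65.1% (84 genes, middle range 32.8 to 86.05% in replicate 1). The median was 38.6% and 35.9% for 377 shorter genes (middle range 18.3 to 64.6% in replicate 1). The shortest selenocysteine gene, the 74-base tRNA-SeC-TCA-3-1, stood at 83.2% and 81.02%, on only 137 R1 counts in each replicate. The part of length in the balance was not tested. Protein-coding features that overlap no tRNA had a median of 87.9% and 84.7%.

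Within the cysteine family, 6 genes had almost no R2 counts. tRNA-Cys-GCA-3-1 had 45182 R1 counts and 188 R2 counts in replicate 1 (0.416%), and 32480 and 111 in replicate 2 (0.342%). tRNA-Cys-GCA-6-1, 9-1, 18-1, 19-1 and 17-1 also had R2 counts under 5% of R1 in both replicates. This made 6 of the 54 genes averaging 10 or more counts, against 38 of 473 (8.03%) over all tRNA features, so the share is not read as particular to these families. All 6 are on the minus strand, where 19 of the 32 cysteine genes lie. Over all tRNA features, 24 of the 38 and 247 of the 473 were on the minus strand. tRNA-iMet-CAT-2-1 lay just above that bound, at 6.46% and 5.43%.

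The opposite was seen in 1 library for tRNA-Cys-GCA-25-1. It had 69 R1 and 3839 R2 counts in replicate 1, but 32 R1 and 34 R2 counts in replicate 2. TBC1D5, the gene that encloses it (ENSG00000131374.14_4, chromosome 3, 17198654 to 18486309), had 4071 R2 counts in replicate 1 and 429 in replicate 2. The R2 mean of tRNA-Cys-GCA-25-1, 173 ± 239 CPM (SD, n = 2), thus rests on replicate 1 alone.

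**Figure D4:**
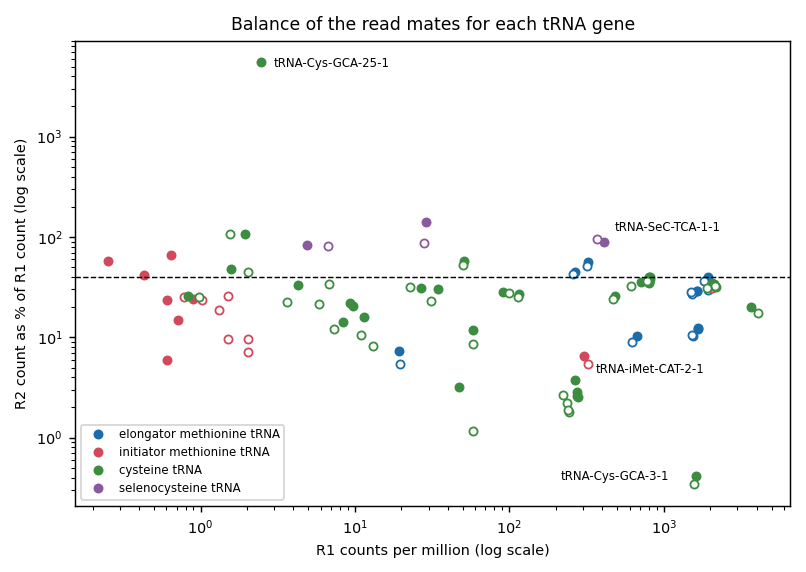
R2 count as a percentage of the R1 count (vertical, log scale) against R1 CPM (horizontal, log scale) for the 54 genes with a mean count of at least 10, filled for replicate 1 and open for replicate 2. The dashed line is the median over all tRNA features in replicate 1 (40.2%). tRNA-SeC-TCA-1-1 lies above the line and tRNA-Cys-GCA-3-1 far below it, at 0.416% and 0.342%.

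Relative to the R1 library total, the families differed by at most 0.14 between replicates on the log2 scale. The log2 ratio of replicate 2 over replicate 1 was -0.099 for elongator methionine (95% counting interval -0.11 to -0.091), 0.0034 for initiator methionine (-0.0089 to 0.016), 0.0048 for cysteine (-0.0014 to 0.011) and -0.14 for selenocysteine (-0.18 to -0.099). The median over 473 tRNA features was -0.012, while 13218 protein-coding features had a median of 1.11. edgeR's TMM factors shift every ratio by -1.095 and DESeq2 size factors by -1.094, so the initiator and cysteine ratios turn negative under both. In R2 the initiator ratio was -0.16 and the cysteine ratio -0.25. Without tRNA-Cys-GCA-2-2 the cysteine ratio was -0.038, and without tRNA-SeC-TCA-1-1 the selenocysteine ratio was 0.033. No counting interval was computed for these 2 values, so their sign is not read.

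Replicate ratios of scarce genes spread more widely. The 33 genes with a mean count of at least 1000 had log2 ratios from -0.27 to 0.30, with a median of -0.038. The 12 genes under 100 counts had a median of 1.03, with 10 of 12 above 0, but 6 of these 10 are copies of 1 isodecoder, tRNA-iMet-CAT-1. Without them 4 of 6 were above 0, with a median of 0.16. Among 111 other tRNA features under 100 counts, 60 were above 0 (54.1%), with a median of 0.060. The 6 minus-strand copies of tRNA-iMet-CAT-1 summed to 99 counts in replicate 1 and 194 in replicate 2, a log2 ratio of 1.41, while the sum of the 2 plus-strand copies stood at -0.0046. At this depth the 12 genes rest on 5 to 69 counts in replicate 1.

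Of the 55 genes, 15 overlap another listed gene that is not a tRNA or piRNA, and the enclosing genes held the counts of the tRNA as well. The share over all tRNA features is not given here, so this number is not read as particular to these families. tRNA-Met-CAT-6-1, with 53891 counts in replicate 1, lies within FBXO31 (53957 counts, minus strand) and MAP1LC3B (53955 counts, plus strand), which encodes the autophagy protein LC3B. Only 66 and 64 counts of these 2 genes were left beside those of the tRNA. This tRNA gene is on the minus strand, so its reads were also counted for a gene on the opposite strand. Counting thus took no account of strand. Whether that bears on the splits between plus-strand and minus-strand copies was not tested. tRNA-SeC-TCA-1-1 lies within the span of ERCC1, a DNA repair gene on the same strand, which had 11510 and 7711 counts, so 54 and 118 were left. CPNE4 encloses tRNA-Cys-GCA-6-1 and tRNA-Cys-GCA-9-1 and had 15393 counts in replicate 1, of which 15383 were the sum of both. ZNF767 on chromosome 7 encloses 8 tRNA features, 6 of them among the 55 genes. It had 76540 and 54125 counts, of which 76364 and 53829 were the sum of these features. Exons, introns and UTRs on hg19 are not given here.

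Genes for charging methionine and cysteine tRNA, initiator delivery, tRNA modification, selenocysteine synthesis and insertion, and selenoproteins were taken from lists. The 2 highest of each list by CPM are named. Since CPM is not scaled for length, it does not rank genes of different lengths. The 5 genes that charge or formylate methionine and cysteine tRNA had a median of 4.96 CPM. These include MARS2, CARS2 and MTFMT, which act on mitochondrial tRNA. The list was led by MARS, the methionyl-tRNA synthetase, at 15.6 ± 8.75 CPM, and CARS, the cysteinyl-tRNA synthetase, at 5.31 ± 2.79 CPM (SD, n = 2 each). The 7 genes that deliver initiator tRNA had a median of 6.09 CPM, led by EIF2S3, the gamma subunit of eIF2, at 18.2 ± 8.41 CPM, and EIF5 at 14.3 ± 8.60 CPM (SD, n = 2 each). The 11 tRNA modification genes, whose target tRNAs were not checked here, had a median of 2.39 CPM. They were led by DUS1L, a dihydrouridine synthase, at 7.79 ± 5.13 CPM, and TRIT1 at 5.24 ± 2.34 CPM (SD, n = 2 each).

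Of the 8 genes for synthesis and insertion of selenocysteine, SARS, which charges the tRNA with serine, led at 12.8 ± 6.30 CPM, followed by EEFSEC, its elongation factor, at 12.1 ± 5.50 CPM (SD, n = 2 each), and the median was 5.82 CPM. The 8 selenoprotein genes were all listed. They had a median of 3.83 CPM, led by TXNRD1, a thioredoxin reductase, at 28.1 ± 13.7 CPM, and GPX4, a glutathione peroxidase, at 8.24 ± 5.38 CPM (SD, n = 2 each). The median over 20298 protein-coding features was 1.50 CPM. All 39 of these genes had a higher CPM in replicate 2, where the median protein-coding feature was also higher (log2 ratio 1.11). The mitochondrial tRNAs for methionine and cysteine are encoded by MT-TM and MT-TC. MT-TM had 15710 and 10066 counts, or 526 ± 52.4 CPM, and MT-TC had 10289 and 6880, or 351 ± 24.4 CPM (SD, n = 2 each). The summed cytosolic families stood at 11459 ± 554 CPM for elongator methionine and 17545 ± 41.1 CPM for cysteine (SD, n = 2 each). MT-TC was also low in R2, with 567 and 366 counts.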

How the data were processed

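CLIP-seq of hTrmt13 in MDA-MB-231 cells was analysed in 2 replicates. The authors deposited raw whole-number counts per listed feature, with 1 table for each read mate. The submitters' processing notes name the tools Bowtie2 (version 2.3.5.1) and bedtools (version 2.24.0) and the hg19 build. For alignment options, strand use and annotation version the entry is: not given in the sources used here. After 13 repeated lines were dropped, 741078 features remained. The counts themselves show that features were counted without regard to strand, since MAP1LC3B held those of a tRNA on the other strand. Starts of tRNA features were read as 0-based, which gave the RefSeq length for 50 of 51 matched members, and positions are printed 1-based.

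Shares were taken of all 596 tRNA features, with exact Clopper-Pearson 95% intervals. R 4.3.3 with edgeR 4.0.16 (TMM) and DESeq2 1.42.0 (size factors) gave other scalings over features averaging 10 or more counts, tested on simulated data. Python 3.11.15, pandas 2.3.3, numpy 2.4.6, scipy 1.17.1 and matplotlib 3.10.9 were used. Full values were given for the 12 highest members and the 2 highest of each family. Others were summarised, and members named for strand, mate balance or replicate ratio, and the genes enclosing them, were picked with their values in view. The members and gene lists were chosen with earlier results of these data known. Alternatives were the R2 table, both mates, single replicates, other denominators, loci left out and other scalings.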

Additional observations from a re-analysis of the deposited data

How the results depend on the processing

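Leave-one-out aside, of 52 family values under an alternative setting, 11 stayed within 1 SD of the replicates (or, for log2 ratios, within the counting interval), 33 moved and 8 changed sign, 4 of them under TMM or size factors, which shift all ratios alike. Apart from settings that remove counts by construction, the cause was not tested. The values that stayed include the shares of all 4 families without loci averaging under 10 counts. These could hardly move, since 54 of the 55 genes pass that bound. Leaving out either of 2 libraries cannot shift their mean past 1 SD, so it says nothing on stability. Shares then ran from 1.963 to 1.974% for elongator methionine, 0.737 to 0.786% for initiator methionine, 2.92 to 3.12% for cysteine and 0.0716 to 0.0740% for selenocysteine, and R2 as a percentage of R1 from 24.7 to 26.3, 29.8 to 31.5, 24.4 to 27.5 and 93.3 to 94.3. In the order elongator, initiator, cysteine, selenocysteine, shares were 1.19, 0.554, 1.86 and 0.162% in R2, 1.74, 0.70, 2.68 and 0.0993% with both mates summed, 3.05, 1.18, 4.67 and 0.113% without the 3 highest tRNA loci in the denominator, 1.64, 0.409, 2.37 and 0.00588% without the family's highest locus, and 2.84, 1.31, 4.49 and 0.00172% without loci overlapping another feature. The setting without overlapping loci also took such loci of other tRNAs out of the denominator. The initiator share thus rose though no initiator gene overlaps another feature. Without lookalikes the elongator share was 2.02%. Without the highest locus, R2 was 29.3% of R1 for the initiator and 109.8% for selenocysteine. The latter leans on replicate 1 of tRNA-SeC-TCA-2-1, with 1147 R2 for 805 R1 counts (142.5%), against 86.9% in replicate 2.

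In the same order, the log2 ratios of replicate 2 over replicate 1 were -1.19, -1.09, -1.09 and -1.24 with TMM factors, -1.19, -1.09, -1.09 and -1.23 with size factors, -0.0080, 0.094, 0.095 and -0.049 against tRNA counts, and -0.28, -0.16, -0.25 and -0.21 in R2. Without the highest locus, tRNA-Cys-GCA-2-2 or tRNA-SeC-TCA-1-1, the ratio was -0.038 for cysteine and 0.033 for selenocysteine, with no counting interval. The changes of sign fall on this selenocysteine value and on the initiator and cysteine ratios, whose main intervals include 0. Of 100 CPM values of named genes and isodecoders, leave-one-out aside, 6 stayed within 1 SD, 54 rose past it (46 of them under those 2 scalings) and 40 fell past it. Depth limits the 12 genes under 100 counts most. No paired analysis was possible because the series holds a single group.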
